A study of Mus musculus with 48 samples.

Results

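The genes described here are 35 astrocyte and reactive astrocyte genes, taken from a list of names that was drawn up with earlier results of these data known, among the 48795 genes of the deposited tables. The samples are cortex RNA from 48 mice, each 6 months old and on a background given as C57BL/6, with 1 RNA-seq library per animal. Q140 is a knock-in allele of the huntingtin gene Htt with an expanded CAG repeat, carried on 1 of the 2 copies, while Msh3 is a gene of DNA mismatch repair. The groups were 7 wild-type mice (WT, 3 females and 4 males), 8 Q140 mice, 9 Msh3+/- mice (5 females and 4 males), 8 Q140 x Msh3+/- mice, 8 Msh3-/- mice and 8 Q140 x Msh3-/- mice, with 4 of each sex where no other number is given. The labels name no cell type to which either allele is restricted. Of the 35 genes, 34 passed the filter on low counts and were tested among 20010 genes, and Lcn2 did not, with between 0 and 21 counts per mouse.

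Astrocytes are the glial cells that take up glutamate and potassium released by neurons, convert glutamate to glutamine, line blood vessels with water channels, and join into networks through gap junctions. In injury and in neurodegeneration they can become reactive, a state usually recognised by more of the filament proteins GFAP and vimentin and of secreted proteins such as those encoded by Serpina3n and Lcn2. Astrocytes in models of Huntington's disease have been studied chiefly in the striatum, for glutamate uptake and potassium buffering.

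Total counts ran from 35.9 M to 64.5 M (M for mega) per mouse, with a mean of 46.5 M; levels are given below in CPM, counts scaled to the library total, with TMM-scaled library sizes. Msh3 RNA goes against a reading of the labels as loss of its RNA: it lay between 21.8 and 25.9 CPM in mice with 0 altered alleles, between 61.2 and 77.4 with 1, and between 99.1 and 125 with 2. The genotypes are written below as labelled, and stand for 1 or 2 altered copies. Htt lay between 225 and 259 CPM in all mice, and the counts do not separate its alleles. In 3 libraries (WT M3, Msh3-/- F3 and Msh3-/- F4; F and M give the sex) RNA of the choroid plexus was present: its 9 markers summed to as much as 1255 CPM, beside a median of 7.73 over all mice. A different set of 3 libraries (Q140 M1, Msh3+/- M2 and Q140 x Msh3-/- M4) stood apart on the second principal component.

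Most listed genes outside the reactive group were abundant in cortex, though levels in bulk tissue do not show which cells made the RNA. Per unit of gene length (FPKM, fragments per kilobase of gene, scaled to library size), 20 of the 29 genes outside the reactive group were among the top 10% of tested genes. The most abundant was Sparcl1, which encodes a secreted matrix protein, at 842 ± 29.8 FPKM (SD, n = 48), followed by Glul (glutamine synthetase) at 494 ± 32.2, Apoe (apolipoprotein E) at 421 ± 32.4 and Slc1a2 (the main glutamate transporter) at 334 ± 18.7. Over mice Glul ranged from 421 to 569 FPKM, Apoe from 329 to 516 and Slc1a2 from 294 to 379, so each overlapped the next in the order. Next in the order came Ndrg2 at 261 FPKM, Aldoc at 213, Clu at 169 and Atp1b2 at 147. Sox9, the transcription factor of astrocyte identity, and Cbs, an enzyme of transsulfuration, had the lowest levels outside the reactive group, at 6.70 ± 0.941 and 6.52 ± 0.569 FPKM. In the group of transporters and enzymes for glutamate and amino acids the lowest was Slc7a10, which carries serine and glycine, at 13.7 FPKM. Gjb6 (connexin 30) was lowest among water, ion and junction genes at 19.2 FPKM, Htra1 (a secreted protease) among secreted proteins at 38.6 and Mt1 among metallothioneins at 48.4. Of the reactive genes, Gfap had 15.5 ± 3.76 FPKM, Serpina3n 7.63 ± 7.13, Vim 4.72 ± 0.636, Osmr 0.358 ± 0.0515, Cd44 0.278 ± 0.0756 and Lcn2 0.0268 ± 0.0330, the last listed at 0 in its lowest mouse.

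The main question for these genes was whether the Q140 allele changed them, and whether the Msh3 genotype altered that change. In Q140 mice of each Msh3 genotype most of the listed genes were slightly lower than in the matched mice without Q140. Counted over the 3 separate comparisons, which share no mouse, 23 of the 34 tested genes were below the matched group in all 3, beside 12.4% of all tested genes, and only Vim was above it in all 3, beside 10.9%. The changes were small, and 1 gene, Plpp3, passed the test across all genes when the 3 comparisons were averaged. The count of 23 is a description of genes that vary together over mice, as shown further on, so it does not stand for 23 separate observations. The list was also drawn up with earlier results of these data known, so the count is not independent support.

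**Figure D1:**
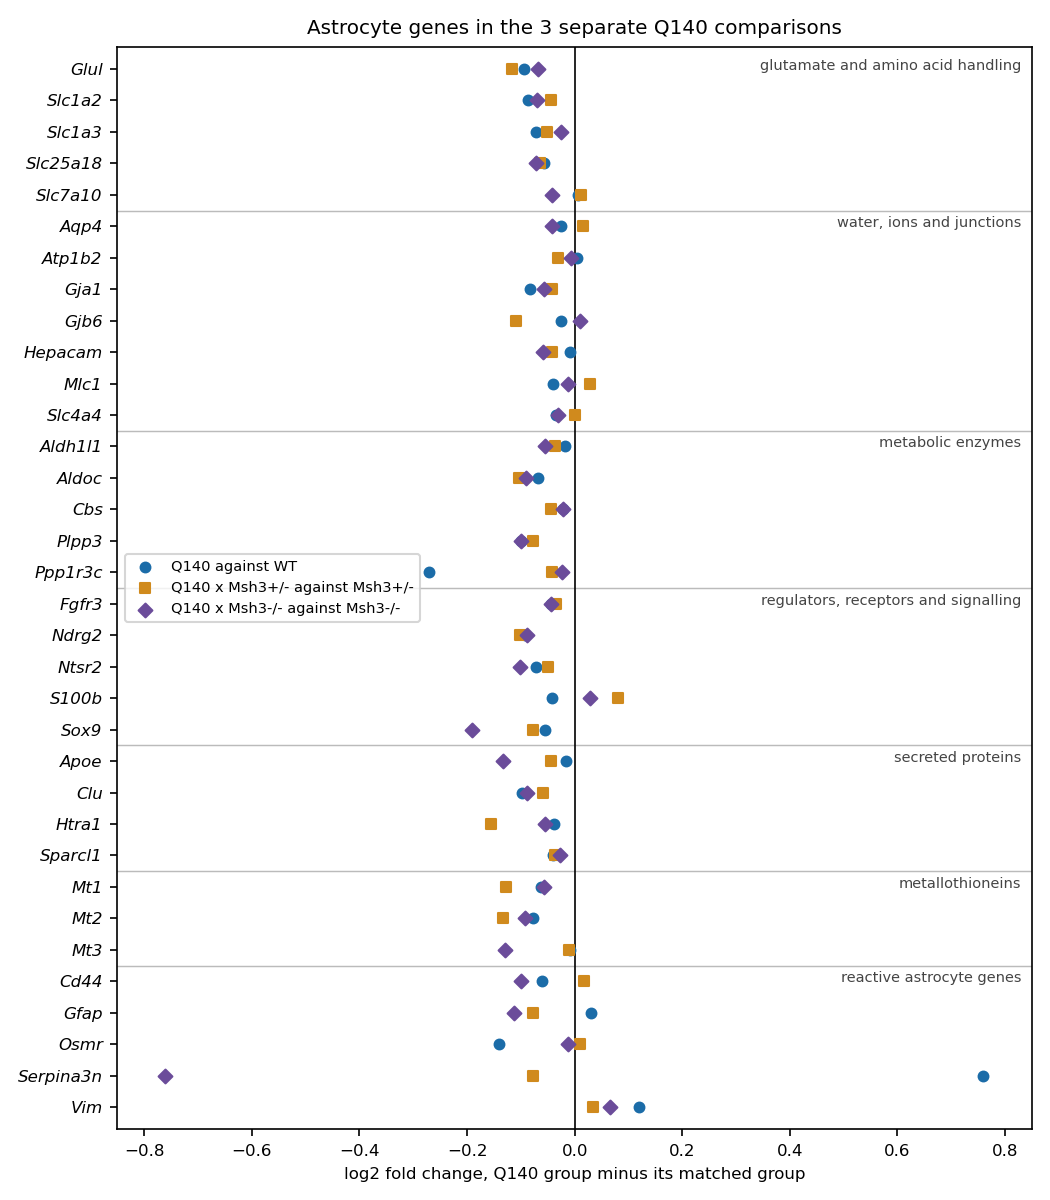
Each row is an astrocyte gene and each symbol its log2 fold change between a Q140 group and the matched group without Q140, for Q140 against WT (circles), Q140 x Msh3+/- against Msh3+/- (squares) and Q140 x Msh3-/- against Msh3-/- (diamonds), with role groups separated by lines. For 23 of the 34 genes all 3 symbols lie left of 0, for Vim all 3 lie right of it, and Serpina3n spreads from -0.76 to 0.76.

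By role, the genes below in all 3 comparisons were 5 of 5 metabolic enzymes, 3 of 3 metallothioneins, 4 of 4 secreted proteins, 4 of 5 genes for glutamate and amino acids, 4 of 5 regulators and receptors, 3 of 7 genes for water, ions and junctions and 0 of 5 tested reactive genes. Of the other lists, 15 of 40 further astrocyte genes, 4 of 27 further reactive astrocyte genes, 0 of 9 markers of cortical neurons, 0 of 12 of microglia, 4 of 8 of oligodendrocytes, 3 of 3 of oligodendrocyte precursors and 4 of 8 of choroid plexus were below in all 3. Above in all 3 were 2 of 40 further astrocyte genes, 5 of 27 further reactive genes, 5 of 12 microglia, 2 of 9 neuron and 3 of 11 endothelial and mural markers, and their part in the astrocyte counts was not tested. In bulk tissue, fewer astrocytes and less RNA per astrocyte cannot be told apart. The 3 libraries that held most of the choroid plexus RNA carried no Q140. Summed over the choroid plexus markers, the highest mouse had 15.7 CPM in Q140 carriers and 1255 in the rest. The medians were 8.16 and 7.47 CPM, slightly higher in carriers. Without those 3 libraries 23 genes were still below in all 3 comparisons, without the other set of 3 libraries 20 were, and without both sets 22 were.

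Averaged over the 3 Msh3 genotypes, 32 of 34 genes were lower in Q140 carriers, with a median log2 fold change of -0.05 beside -0.0003 over all tested genes. At an unadjusted p under 0.05 there were 14 listed genes, all lower, beside 5.63% of all tested genes, and edgeR's adjusted test called 1, beside 0.035%. Plpp3 encodes a membrane phosphatase that breaks down lysophosphatidic acid and other lipid phosphates and is enriched in astrocytes (GRCm38 chromosome 4, 105157347 to 105232764, plus strand). Its lowest, median and highest mouse had 205, 212 and 230 CPM in WT and 193, 201 and 209 in Q140. With 1 altered Msh3 allele they were 203, 213 and 223 CPM without Q140 and 192, 204 and 220 with it. With 2 altered alleles they were 211, 221 and 236 CPM without Q140 and 180, 209 and 228 with it. The Q140 group was lower in median each time and overlapped its matched group each time. The averaged log2 fold change of Plpp3 was -0.09 ± 0.02 (SE, n = 24 and 24, adjusted p = 0.036, edgeR), so that its level fell by 6.18%. This call was lost in 24 of the 48 fits that leave out 1 mouse, where the adjusted p ran from 0.00606 to 0.0947, and also without either set of 3 libraries (adjusted p = 0.0761 and 0.0651).

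Clu encodes clusterin, a secreted chaperone and lipoprotein component. Over all Q140 carriers its lowest, median and highest mouse had 504, 570 and 602 CPM, beside 559, 594 and 648 in mice without Q140. Its averaged log2 fold change was -0.08 ± 0.02 (adjusted p = 0.106, edgeR), which DESeq2 and limma with voom weights called (adjusted p = 0.021 and 0.0456). Ndrg2, an alpha/beta-hydrolase fold protein used as an astrocyte marker, had a mean of 571 ± 41.2 CPM in WT and 536 ± 25.2 in Q140 mice. With 1 altered Msh3 allele its mean was 575 ± 21.4 CPM without Q140 and 535 ± 25.2 with it, and with 2 altered alleles 597 ± 28.2 and 561 ± 51.2. Each Q140 mean of Ndrg2 was below its matched mean, and the ranges overlapped. Glul, whose enzyme turns glutamate into glutamine, ran from 1383 to 1787 CPM in the 3 Q140 groups and from 1533 to 1918 in the others. Its averaged log2 fold change of -0.09 ± 0.03 and that of Ndrg2 (-0.09 ± 0.02) did not pass (adjusted p = 0.37 and 0.25, edgeR).

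**Figure D2:**
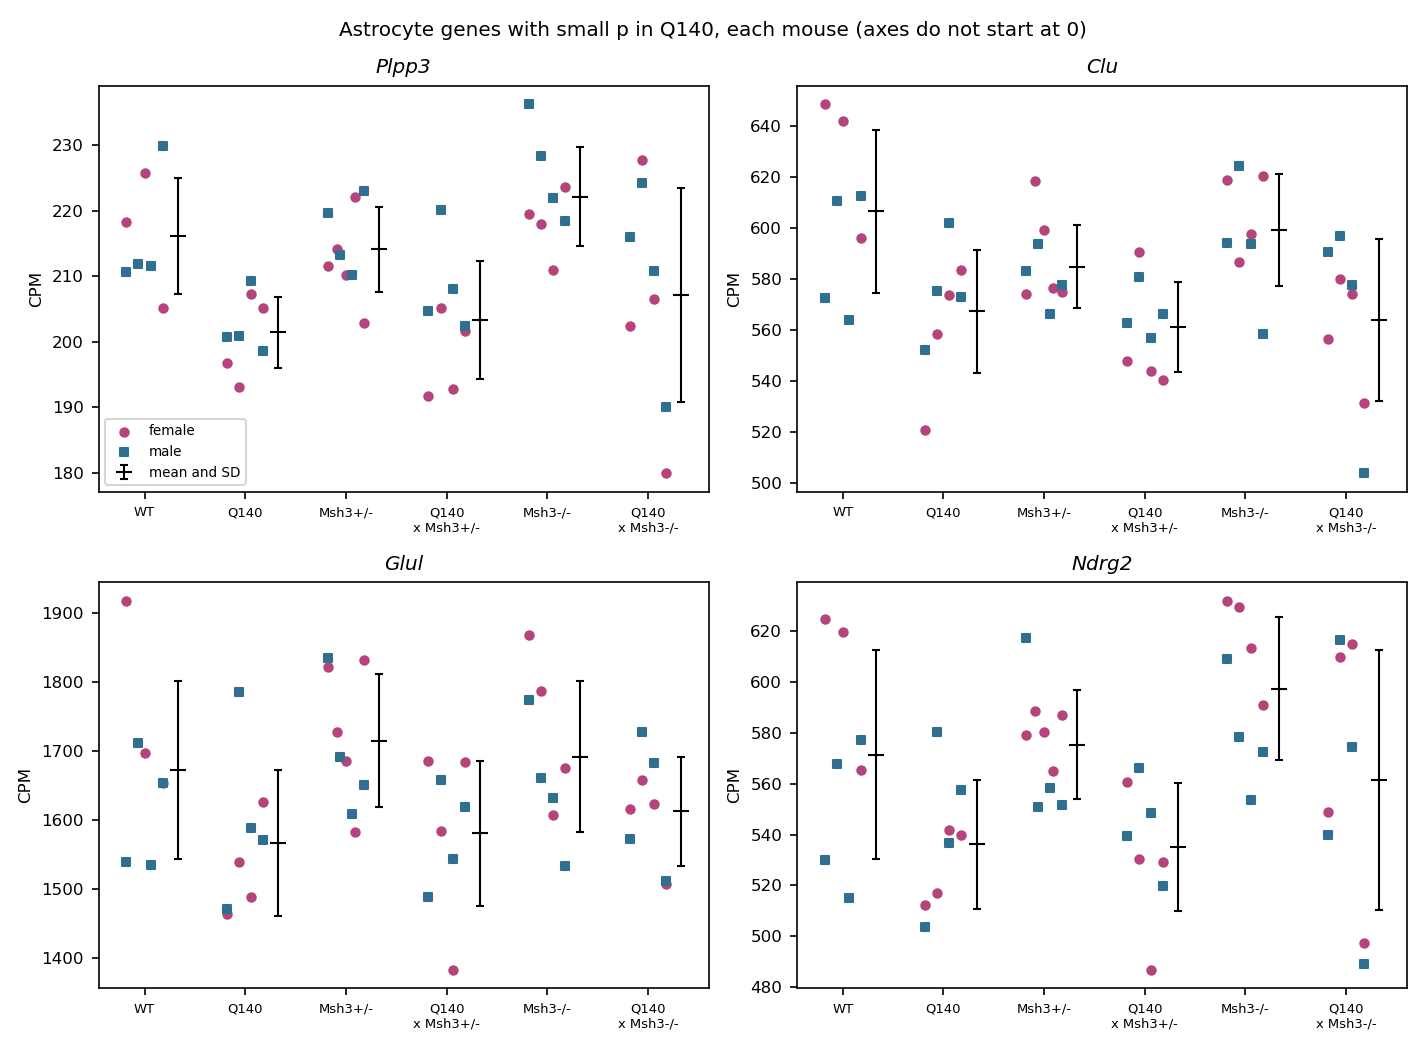
CPM of Plpp3, Clu, Glul and Ndrg2 in each mouse (circles females, squares males) by group, with the mean and SD beside each group and axes that do not start at 0. Every Q140 group has a lower mean than the group to its left, and in Plpp3 the means run from 201 in Q140 to 222 in Msh3-/-.

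Of the 2 glutamate transporters, Slc1a2 had -0.07 ± 0.02 (adjusted p = 0.622) and Slc1a3 -0.05 ± 0.02 (adjusted p = 0.799) in the averaged Q140 comparison. Slc25a18, a mitochondrial glutamate carrier, had -0.06 ± 0.03, and Slc7a10 -0.01 ± 0.03. Among the enzymes, Aldoc (the brain form of aldolase) had -0.09 ± 0.03 (adjusted p = 0.394) and Ppp1r3c, which directs a phosphatase to glycogen, -0.11 ± 0.04 (adjusted p = 0.622). None of these passed the test. Several genes of water, ion and junction handling had values near 0: Mlc1, a membrane protein of astrocyte endfeet, had a 95% interval of -0.05 to 0.03 on the log2 scale, Atp1b2, a subunit of the sodium pump, -0.06 to 0.03, and Aqp4, the water channel, -0.08 to 0.04. In the same group Hepacam, an adhesion protein, had -0.04 ± 0.02, Gjb6 -0.04 ± 0.05 and Gja1 (connexin 43) -0.06 ± 0.02 (for Gja1, unadjusted p = 0.0128 and adjusted p = 0.747, edgeR). S100b, a calcium-binding protein, was the only non-reactive gene with a positive averaged value, 0.02 ± 0.02.

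In the separate comparisons edgeR called 0 listed genes, as did DESeq2 and limma with voom. For Q140 against WT (0.01% of tested genes called) 6 listed genes had an unadjusted p under 0.05, beside 5.48% of tested genes, all of them lower. The smallest p belonged to Ppp1r3c, whose mice ran from 31.5 to 45.3 CPM in WT and from 28.5 to 34.2 in Q140. Its log2 fold change was -0.27 ± 0.07 (adjusted p = 0.385), and Clu followed with -0.10 ± 0.03 (adjusted p = 0.822). In Q140 x Msh3+/- against Msh3+/- (0.015% called, 6.2% at an unadjusted p under 0.05) 6 listed genes had an unadjusted p under 0.05, 5 of them lower, led by Glul (-0.12 ± 0.04) and Ndrg2 (-0.10 ± 0.04), each at an adjusted p of 0.78. In Q140 x Msh3-/- against Msh3-/- (0% called, 6.8% unadjusted) 7 had one, all lower, led by Plpp3 (-0.10 ± 0.03, adjusted p = 0.671) and Clu (-0.09 ± 0.03, adjusted p = 0.683).

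For oligodendrocyte precursors, 2 of 3 markers had an unadjusted p under 0.05 in the averaged Q140 comparison, both lower, with a median log2 fold change of -0.06, beside 0.02 for microglia, -0.02 for oligodendrocytes and -1.19 for choroid plexus. The value for choroid plexus includes the 3 libraries with that RNA, which carried no Q140. The part of these other cell types in the astrocyte result was not tested. Of 40 further astrocyte genes 33 were lower, with a median of -0.02, and 0 were called. The smallest p among them belonged to Mfge8, a secreted phagocytosis bridge protein, at -0.11 ± 0.03 (adjusted p = 0.267), and to Ttyh1, a membrane channel protein, at -0.06 ± 0.02 (adjusted p = 0.59), and 8 had an unadjusted p under 0.05, all lower. Of 27 further reactive genes 14 were higher and 13 lower, and 0 were called by edgeR, with 3 at an unadjusted p under 0.05.

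Whether the Q140 difference depended on the Msh3 genotype was tested as a difference of differences. For Msh3+/- no gene of any kind was called (0%), and 2 listed genes had an unadjusted p under 0.05, beside 6.43% of tested genes: Ppp1r3c (0.23 ± 0.09) and S100b (0.12 ± 0.05). For Msh3-/-, again at 0% called, 2 listed genes did, beside 5.35%: Ppp1r3c (0.25 ± 0.09) and Serpina3n (-1.52 ± 0.73). For Plpp3 the Q140 log2 fold changes were -0.10, -0.08 and -0.10 in WT, Msh3+/- and Msh3-/- mice. For Ppp1r3c they were -0.27, -0.04 and -0.02, and its WT mean of 38 ± 5.01 CPM was above all 5 other group means, which lay between 31.4 and 34.5.

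The altered Msh3 alleles themselves moved the listed genes little. For Msh3+/- against WT (0.025% called, 9.5% at an unadjusted p under 0.05) 1 listed gene had an unadjusted p under 0.05, Cd44, a hyaluronan receptor, at -0.36 ± 0.16 (adjusted p = 0.498). For Msh3-/- against WT (0.035% called, 5.73% unadjusted) there were 3: Ppp1r3c at -0.18 ± 0.07, Serpina3n at 1.43 ± 0.53 and S100b at -0.08 ± 0.04, with adjusted p of 0.848, 0.848 and 0.866. For Q140 x Msh3+/- against Q140 (0.02% called, 5.14% unadjusted) there were 0, and the smallest p belonged to Slc4a4, a bicarbonate transporter, at 0.06 ± 0.04. For Q140 x Msh3-/- against Q140 (0.045% called, 9.07% unadjusted) there was 1, Apoe, the main lipid carrier of brain, at -0.12 ± 0.05 (adjusted p = 0.469). Averaged over Q140 status, 2 against 0 altered alleles (0.085% called, 9.27% unadjusted) gave 1, Ndrg2, at 0.06 ± 0.03 (adjusted p = 0.502). Across these 5 comparisons edgeR, DESeq2 and limma with voom each called 0 listed genes. The median log2 fold change of the listed genes was between 0.0008 and 0.02.

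Fgfr3, a fibroblast growth factor receptor of astrocytes, is the only listed gene near a targeted locus: it starts 1.04 Mb from Htt on chromosome 5 (33721674 to 33737068, plus strand). Its averaged Q140 log2 fold change was -0.04 ± 0.04 (adjusted p = 0.952). No listed gene lies within 10 Mb of Msh3.

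No reactive gene passed the test in any comparison of genotypes, and Serpina3n, Cd44 and Gfap had the widest spread between mice of the tested listed genes. Gfap, the intermediate filament of reactive astrocytes, had a lowest, median and highest mouse of 47.4, 61.6 and 92.7 CPM in WT and 50.5, 58.9 and 114 in Q140. In Q140 x Msh3+/- the values were 52.1, 61.6 and 70.4 CPM, and in Q140 x Msh3-/- 49.1, 57.2 and 108. The groups overlapped throughout, and the averaged Q140 log2 fold change was -0.05 ± 0.09 with a 95% interval of -0.23 to 0.12. For Vim, which encodes the filament protein vimentin, the 3 Q140 log2 fold changes were 0.12, 0.03 and 0.07, and their average was 0.07 ± 0.05 (adjusted p = 0.941). Osmr, the oncostatin M receptor, and Cd44 averaged -0.05 ± 0.06 and -0.05 ± 0.10. Lcn2, the secreted lipocalin that marks strong reactivity, had at most 0.545 CPM in any mouse.

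Serpina3n, which encodes a secreted serine protease inhibitor and is widely used as a marker of reactive astrocytes, fell into 2 separate ranges. In 39 mice it lay between 5.89 and 12.3 CPM and in 9 mice between 40.1 and 50.2, with no mouse between. The 9 mice were 1 of 8 Q140, 2 of 9 Msh3+/-, 2 of 8 Q140 x Msh3+/-, 3 of 8 Msh3-/-, 1 of 8 Q140 x Msh3-/- and 0 of 7 WT mice. Group medians ranged only from 8.17 CPM in Msh3+/- to 10.3 in Msh3-/-. The large fitted changes of Serpina3n, 0.76 in Q140 against WT and -0.76 in Q140 x Msh3-/- against Msh3-/-, stand beside these numbers of mice in the upper range, and none passed the test. Mice whose names share a stem (the animal name without its last number, whose meaning the labels do not give) were found on both sides: of 6 stems with a mouse in the upper range, 5 also had 1 or more in the lower.

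Serpina3m, a paralog 0.07 Mb away on chromosome 12, divided the same mice, with 0.55 to 0.873 CPM in the 9 and 0.022 to 0.077 in the other 39, computed with a prior count of 1. How the counting treated reads that fit both paralogs is not stated, so the level of each is uncertain. To see what else follows each gene over mice, all tested genes were ordered by the absolute correlation of their deviations from group and sex means with those of each listed gene, and the nearest 25 were kept as a description. For Serpina3n, 14 of the nearest 25 genes lie on its own chromosome 12, which holds 3.35% of tested genes. They include Lgmn (1.97 Mb away), Ttc7b (3.89 Mb), Ttc8 (5.49 Mb), Sel1l (12.6 Mb) and Gstz1 (17.3 Mb), and some are higher and others lower where Serpina3n is high. For the other 33 genes between 0 and 5 of the nearest 25 shared the gene's chromosome. No listed gene was among the nearest 25 of Serpina3n. This order uses all 48 mice, so for Serpina3n it also holds the difference between the 2 ranges. Besides the values over all mice given further on, correlations of Serpina3n with Gfap and Osmr were therefore taken within each range. These used log2 CPM itself, with mice permuted freely within the range. Differences of group and sex were not removed, so they may enter these values. Within the 39 lower mice, Gfap had r = 0.381 with it (permutation p = 0.017, adjusted over 4 relations 0.068) and rho = 0.247 (p = 0.129, adjusted 0.442 by permutation), and r was 0.203 without the 2 mice farthest from the median of Gfap. Within the 9 upper mice r was 0.373 (permutation p = 0.334, adjusted 0.668) and rho 0.233 (permutation p = 0.552), and r turned to -0.212 without the 2 farthest mice. Osmr had r = -0.104 and -0.049 in the 2 ranges, with adjusted permutation p of 0.704 and 0.899.

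**Figure D3:**
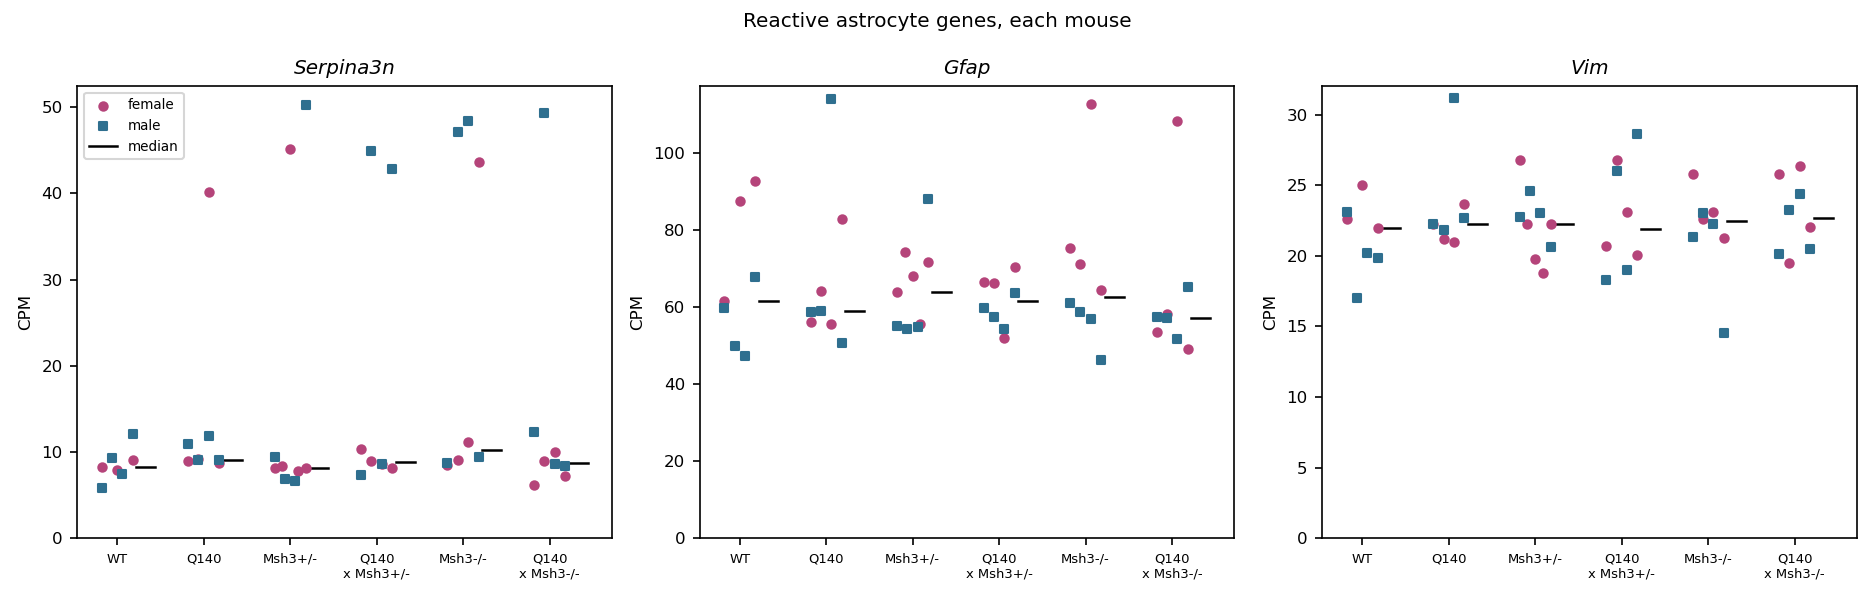
CPM of Serpina3n, Gfap and Vim in each mouse (circles females, squares males) by group, on axes from 0, with a line at each group's median. Serpina3n has 9 mice between 40.1 and 50.2 CPM in 5 of the 6 groups and all others at or below 12.3, while Gfap and Vim spread without such a gap.

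Between males and females 1112 genes were called, or 5.56% of those tested, and 5 of 34 listed genes were among them, with 14 at an unadjusted p under 0.05 beside 20.7% of tested genes. Of the 5, 4 were lower in males, and the differences were of a few percent with overlap between the sexes.

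S100b, which encodes a calcium-binding protein secreted by astrocytes (chromosome 10, 76253853 to 76261159, plus strand), had a lowest, median and highest mouse of 85.5, 91.6 and 96.2 CPM in females and 76, 83.5 and 96.5 in males. Its log2 difference, males minus females, was -0.10 ± 0.02 (adjusted p = 0.00204, edgeR). Aldh1l1, a folate enzyme used as a general astrocyte marker (chromosome 6, 90486427 to 90600203, plus strand), had 58.1, 69.8 and 82.4 CPM in females and 59.1, 63.4 and 70.2 in males, a difference of -0.11 ± 0.03 (adjusted p = 0.00496). These 2 calls were kept in all 13 alternative fits and in each of the 48 fits that leave out 1 mouse. Gja1 was higher in males by 0.08 ± 0.02 (adjusted p = 0.0329), with medians of 158 and 170 CPM. Slc4a4 and Atp1b2 were lower in males by small amounts, at -0.07 ± 0.02 each (adjusted p = 0.0403 and 0.0425). The calls of these 3 were not stable: Gja1 lost its call without Msh3+/- M4 or without Msh3-/- F2, Slc4a4 in 21 and Atp1b2 in 26 of the 48 fits without 1 mouse, and all 3 lost it with the column-name stem as a random block. Without both sets of 3 libraries Atp1b2 had -0.04 (adjusted p = 0.281).

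**Figure D4:**
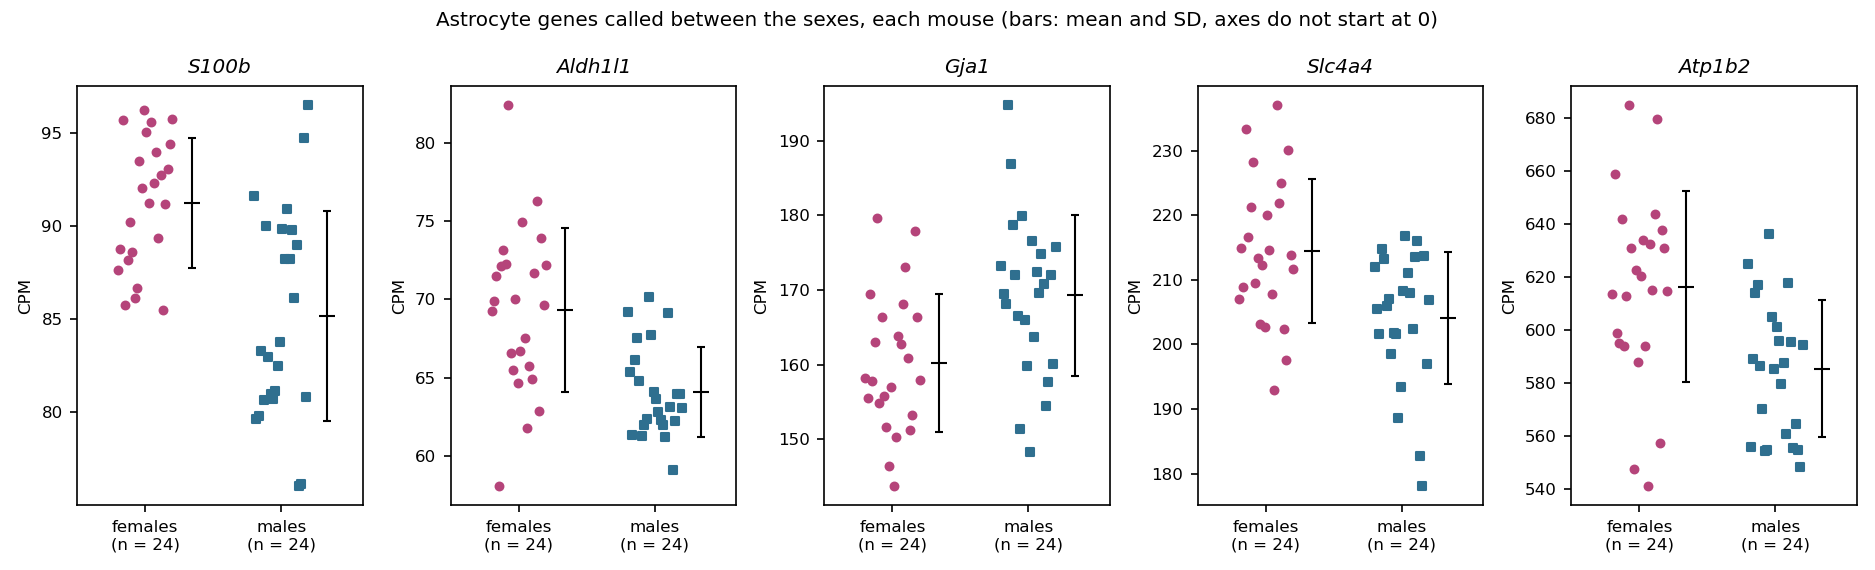
CPM of S100b, Aldh1l1, Gja1, Slc4a4 and Atp1b2 in each of 24 females (circles) and 24 males (squares), with the mean and SD beside each sex and axes that do not start at 0. The distributions overlap in all 5 genes, and the shift is widest relative to the spread in S100b (91.2 ± 3.48 in females and 85.2 ± 5.64 in males) and Aldh1l1 (69.3 ± 5.27 and 64.1 ± 2.88).

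Of 40 further astrocyte genes, 11 were called between the sexes, 9 lower and 2 higher in males. Kcnj10, the potassium channel Kir4.1 of astrocytes, had -0.26 ± 0.04 (adjusted p = 7.15e-05), Btbd17 -0.30 ± 0.05 and Acsbg1, a fatty acid activating enzyme, -0.13 ± 0.02. Id4, a regulator of differentiation, was higher in males by 0.15 ± 0.03 and Bmpr1b, a bone morphogenetic protein receptor, by 0.09 ± 0.03. Of 27 tested further reactive genes, 1 was called, Ptgs2 (cyclooxygenase 2), at 0.38 ± 0.10 (adjusted p = 0.0129). Markers of other cells differed with sex as well: 2 of 3 tested ependymal markers were called lower in males, with the sum at a median of 5.66 CPM in females and 4.66 in males, and their part in these differences was not tested. Choroid plexus markers had a median log2 difference of -0.56, with 2 of the 3 libraries with that RNA from females. The 3 tested markers of blood cells had a median of 1.01, and oligodendrocyte markers one of -0.11.

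The Q140 difference was also set against sex. In females the mean log2 difference between Q140 carriers and the rest was negative for 32 of 34 listed genes, with a median of -0.083 (12 mice against 12), and in males for 26, with a median of -0.029. Over all 20010 tested genes, 10069 were negative in females and 10097 in males, with medians within 0.001 of 0. The test of the difference between the sexes called no gene (0%), and 3 listed genes had an unadjusted p under 0.05, beside 4.48% of tested genes: Aldoc at 0.12 ± 0.05, Ndrg2 at 0.10 ± 0.05 and Clu at 0.07 ± 0.04, each at an adjusted p of 0.986. Of the 34 genes, 28 had a positive difference. That count is over genes that vary together over mice, and the share of all tested genes is not set beside it. Ndrg2 had -0.152 in females and -0.046 in males and Clu -0.122 and -0.045, while Plpp3 had -0.103 and -0.085. The widest contrasts were in Gfap (-0.229 and 0.084) and in Serpina3n over both its ranges (-0.172 and 0.127), with opposite signs. A difference between the sexes in the Q140 effect was therefore not detected gene by gene, and a p that misses the threshold does not show that the sexes act alike.

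Apart from group and sex, the astrocyte genes varied together over mice. Deviations of log2 CPM from the group and sex means were correlated over 48 mice as a description, since all pairs share the same libraries and their composition. Over the 561 pairs of listed genes the median r was 0.285 and 84.5% of pairs were positive, beside a median of 0 and 50% positive over all pairs of tested genes. These pairs include Serpina3n over both its ranges. For the 29 genes outside the reactive group the median was 0.382. With group and sex fitted as separate terms, the median residual SD of the listed genes was 0.0958 on the log2 scale, beside 0.142 for all tested genes. These medians were not matched for level, and 20 of the 29 genes outside the reactive group were among the top 10% by FPKM. Sparcl1 (0.06), Clu (0.06), Plpp3 (0.06), Mlc1 (0.07) and Slc1a3 (0.07) had the smallest SD and Serpina3n (0.96), Cd44 (0.33), Gfap (0.31), Mt2 (0.24) and Osmr (0.21) the largest.

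The strongest pair was Glul and Htra1 (r = 0.916), joined by Gjb6 (0.836 with Glul and 0.862 with Htra1). Ndrg2 was close to Ntsr2, a neurotensin receptor of astrocytes (0.826), and to Aldoc (0.808). Clu and Plpp3, the 2 genes with the smallest p in the averaged Q140 comparison, had r = 0.686. Sox9 went the other way, with r = -0.614 to Mt2, -0.569 to Mt1, -0.564 to Gjb6 and -0.551 to Htra1, and a mean of -0.15 with the non-reactive genes. Its nearest genes over mice were Bcl6 (-0.828), a transcriptional repressor, Zfp36l1 (0.821), an RNA-binding protein, and Bcl2l1 (-0.811). Genes outside the list followed this contrast too: Tsc22d3 had r = -0.757 with Sox9 and 0.866 with Gjb6. Usp54 had -0.715 with Sox9, 0.861 with Gjb6 and 0.843 with Mt2. Both were picked after their values were seen, and what drives the shared variation was not tested. Osmr, Ppp1r3c and Aqp4 had r from 0.432 to 0.616 among themselves and mean r of 0.065, 0.064 and 0.049 with the non-reactive genes. These low means cover values of both signs: outside the reactive group, Aqp4 had r = 0.406 with Slc1a3 and -0.285 with Mt3, and Ppp1r3c had 0.236 with Slc1a3 and -0.192 with Hepacam. Nor were Osmr, Ppp1r3c and Aqp4 separate from the rest: Aqp4 had its highest r with Gfap (0.544), and Osmr had 0.399 with Apoe.

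**Figure D5:**
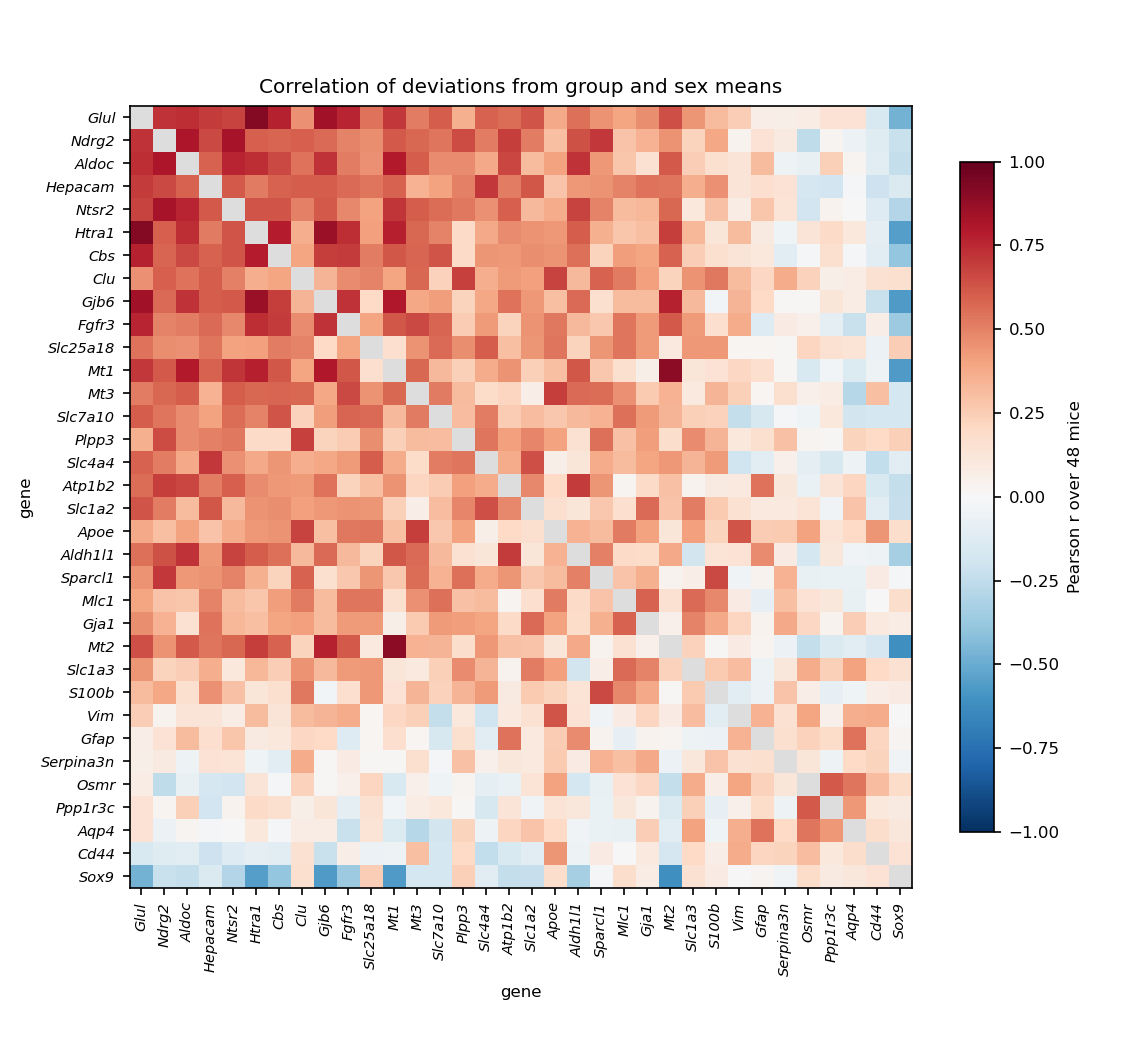
Pearson r over 48 mice between the deviations of each pair of the 34 tested genes from their group and sex means, with genes ordered by their mean r with the 29 genes outside the reactive group, and red positive and blue negative. The upper left block is red (Glul has a mean r of 0.519), Sox9 in the last row is blue against most of that block, and Osmr, Ppp1r3c and Aqp4 are red among themselves.

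Of the nearest 25 genes, those named here were chosen after their values were seen. For Aldoc 7 of the 25 were other listed genes and for Ndrg2 and Ntsr2 5 each. For Vim 0 were listed genes, and the nearest were Nid1 (0.817), Lamb2 (0.815), Fn1 (0.802) and Col1a2 (0.80), genes of basement membrane and extracellular matrix made chiefly by vascular and meningeal cells. Among the listed genes, r of Vim ran from -0.239 with Slc7a10 to 0.63 with Apoe, and it was 0.347 with Gfap. The part of vascular and meningeal cells in the level of Vim was not tested. A count of 0 listed genes was not particular to Vim. Slc1a3, Aqp4, Sox9, Apoe, Mt3, Serpina3n and Cd44 also had 0 among their nearest 25. For Glul the second nearest was Glns-ps1 (0.91), a pseudogene of Glul, with which reads may be shared. For Gfap 2 of 25 were listed genes, and the first was C4b (0.722), a complement gene that astrocytes and other glia express.

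For 10 pairs chosen by shared function or place, r was tested by 100000 permutations within group and sex and adjusted over the 10 pairs. Apoe and Clu, both lipoprotein components, had r = 0.676 (rho = 0.631, permutation p = 2e-05, adjusted 0.0001) and 0.542 without the 2 farthest mice. Slc1a2 and Slc1a3 had r = 0.508 (rho = 0.517, permutation p = 0.00187, adjusted 0.00374) and 0.416 without the 2 farthest mice. Mlc1 and Hepacam, whose proteins form a complex at astrocyte junctions, had r = 0.494 (rho = 0.514, permutation p = 0.0029, adjusted 0.00483) and 0.47 without the 2 farthest mice. Gfap and Aqp4 had r = 0.544 (rho = 0.574, permutation p = 1e-04, adjusted 0.000333) and 0.537 without the 2 farthest mice. Gja1 and Gjb6, the 2 astrocyte connexins, had r = 0.317 (rho = 0.303, permutation p = 0.0677, adjusted 0.0847), which did not pass. Over all 48 mice, and so across both ranges of Serpina3n, Gfap had r = 0.16 with it (rho = 0.144, permutation p = 0.223, adjusted 0.248). Osmr had r = 0.124 with Serpina3n (rho = 0.1055, permutation p = 0.5025, adjusted 0.5025), and neither of these passed. Gfap and Vim had r = 0.347 (rho = 0.282, permutation p = 0.0263, adjusted 0.0376), and without Q140 M3 and Q140 x Msh3-/- F3 it was 0.137 (adjusted 0.402), so that relation rests on those 2 mice.

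The metallothioneins bind zinc and copper, and their transcription is known to rise with zinc through metal response elements in the promoter, and with glucocorticoids. Mt1 and Mt2 lie next to each other on chromosome 8, with starts 6.4 kb apart, and Mt3, the brain form, starts 20.1 kb from Mt2. Their coding sequences are alike, so reads could be divided between them in a way the sources do not state. Over mice Mt1 and Mt2 had r = 0.893 (rho = 0.863, permutation p = 1e-05, the smallest that 100000 permutations can give, adjusted 0.0001) and 0.851 without the 2 farthest mice. Mt1 and Mt3 had r = 0.578 (rho = 0.564, permutation p = 0.00018, adjusted 0.00045) and 0.553 without them. Because Mt1 and Mt2 move together, their promoters are shown, from RefSeq on GRCm38.p6, with 250 bases before and 50 after the start, 5′ to 3′ on the plus strand. Capitals mark matches on either strand to the core of the metal response element, searched as TGCACNC and TGCGCNC, whose matches do not overlap here.

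Mt1, chr8:94178839-94179138, plus strand: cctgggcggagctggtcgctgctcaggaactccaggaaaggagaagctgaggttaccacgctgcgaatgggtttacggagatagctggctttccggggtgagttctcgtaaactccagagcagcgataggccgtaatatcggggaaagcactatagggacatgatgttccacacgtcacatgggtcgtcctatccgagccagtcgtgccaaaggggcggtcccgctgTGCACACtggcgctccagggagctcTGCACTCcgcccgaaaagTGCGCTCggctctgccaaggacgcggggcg
Mt2, chr8:94172368-94172667, plus strand: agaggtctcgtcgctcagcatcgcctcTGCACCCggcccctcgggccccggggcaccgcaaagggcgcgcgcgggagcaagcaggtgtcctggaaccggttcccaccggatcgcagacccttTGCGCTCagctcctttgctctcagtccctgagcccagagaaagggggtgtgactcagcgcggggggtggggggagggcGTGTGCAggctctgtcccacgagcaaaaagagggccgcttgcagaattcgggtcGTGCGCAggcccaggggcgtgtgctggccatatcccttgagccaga
Mt1 holds 3 matches and Mt2 4, of which 2 are on the minus strand, while the same window of Mt3 holds 1. At least 1 match is found in 25.7% of the 32851 RefSeq mouse promoters of this length, at least 3 in 1.97% and at least 4 in 0.517%. A match describes letters and is not evidence of binding, and the part of these matches in the shared variation was not tested. Of the 35 listed genes 30 have an entry in the promoter table.

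Levels of the metallothioneins overlapped between all groups. Mt1 ran from 47.3 to 82 CPM, Mt2 from 21.7 to 46.2 and Mt3 from 73.6 to 109 over all mice. The averaged Q140 log2 fold changes were -0.08 ± 0.05 for Mt1, -0.10 ± 0.07 for Mt2 and -0.05 ± 0.03 for Mt3, with adjusted p of 0.892, 0.918 and 0.889. The highest Mt1 and Mt2 levels were in the same mouse, Q140 x Msh3+/- F1, at 82 and 46.2 CPM, in a group whose medians of 54.7 and 28.2 CPM were the lowest of the 6 for both genes.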

How the data were processed

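RNA from the cortex of 48 mice was sequenced with TruSeq stranded libraries, per the labels' protocols. The deposited gene counts and FPKM values were made by the authors with STAR 2.7.5c, SAMtools 1.10 and HTSeq 0.12.3 on GRCm38 (mm10), per the submitters' processing notes; how strand was handled in counting is not stated there. Library totals ran from 35.9 M to 64.5 M counts. Separate mice are the replicates.

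Counts were fitted with edgeR 4.0.16 (R 4.3.3; TMM, filterByExpr, quasi-likelihood test) in 1 model of genotype and sex over 48 mice, with 41 residual degrees of freedom, and p was adjusted over 20010 genes by Benjamini-Hochberg; a gene was called at an adjusted p under 0.05. Log2 CPM used a prior count of 1. Alternatives used DESeq2 1.42.0 and limma 3.58.1 (voom, or log2 of deposited FPKM plus 0.1 or 1). Deviations from group and sex means gave the correlations, except those of Serpina3n within its 2 ranges, which used log2 CPM itself. The fits were tested on simulated data. Named genes were those called, the 2 with the smallest p per comparison, and those at the extremes of spread and level. Members and lists were chosen with earlier results of these data known. For 1 called gene of the further astrocyte list the result is not reported here.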

Additional observations from a re-analysis of the deposited data

Results flagged for a closer look

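Within each group the highest and lowest mouse of each gene were compared with the rest by Dixon's criterion. Of 210 sets, 23 were marked, 16 on the high side. A nominal share of 5% would mark 10.5, but the sets share mice and hold correlated genes, so an excess cannot be read from these numbers. Of the 23 marked sets, 4 belong to Q140 x Msh3-/- M4, all low, in a library that stood apart on the second principal component: Mlc1 at 99.7 CPM, Cbs at 18.7, Fgfr3 at 82 and S100b at 76. WT F1 had 3 high values, Fgfr3 at 138 CPM, Htra1 at 138 and Mt2 at 43.2. Q140 x Msh3+/- F1 also had 3, Aldh1l1 at 75 CPM, Mt1 at 82 and Mt2 at 46.2. Q140 M3 was highest in its group in Apoe at 1093 CPM and in Vim at 31.2.

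In Msh3+/- mice, Slc4a4 was at 233 CPM and Lcn2 at 0.545 in F4, Gja1 at 195 in M4, Cbs at 18.8 in M3 and Sox9 at 21.6 in M1. Gfap was at 113 CPM in Msh3-/- F3, one of the libraries with choroid plexus RNA, and at 108 in Q140 x Msh3-/- F3. Vim was lowest at 14.5 CPM in Msh3-/- M4. Serpina3n stood at 40.1 CPM in Q140 F3 and at 49.4 in Q140 x Msh3-/- M2, each the only mouse of its group in the upper range of that gene. Cd44 was at 3.07 CPM in Q140 x Msh3-/- M1.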

How the results depend on the processing

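In the averaged Q140 comparison, where edgeR called 1 listed gene, the count was 0 with no low-count filter, with limma on log2 FPKM plus 0.1 or plus 1, without the sex term, with the plate column as a factor, with the replicate block, without either set of 3 libraries and without both. It was 2 with DESeq2 and with voom, and 0 to 2 with each mouse left out. Between males and females, where 5 were called, the count was 2 with no filter, with the replicate block and with the column-name stem as a random block, 3 with either FPKM setting, without either set of 3 libraries and without both, 4 with voom, 5 with DESeq2's size factors, 6 with the DESeq2 test, the stricter filter or the plate column, and 2 to 8 with each mouse left out. The fit without both sets was chosen after seeing the data. All other comparisons called 0 listed genes under every alternative run. The 23 genes below in all 3 Q140 comparisons became 18 to 26. The correlation of Gfap with Vim was 0.137 without the 2 farthest mice. The causes of these shifts were not tested.

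The replicate numbers did not pair the mice: deviations of mice with the same number and sex had a mean correlation of -0.027 over 115 pairs, beside -0.025 over 364 other pairs, so the replicate block is given as an alternative only. Mice of different groups that share a column-name stem had a mean correlation of 0.185 over 23 pairs. Depth limits Lcn2, with at most 21 counts per mouse.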
